A study of Mus musculus with 10 samples.

Results

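Of the 53974 genes in the TPM table (a level scaled for transcript length and for the library's total), 4 were examined because they were listed at 0 in each of the 3 RNA-seq libraries labelled WT and above 3 TPM in each of the 3 labelled cKO. They are *Gm47101* (ENSMUSG00000112073.1), *Gm49671* (ENSMUSG00000116663.1), *1700087M22Rik* (ENSMUSG00000115723.1) and *Snhg9* (ENSMUSG00000090101.1). The same RNA-seq values chose the genes, so the gap between the groups is given as a description, with no test. Both other genes that met the rule, *Gm13828* and *Gm48191*, are given where they bear on these 4, and the 6 genes make up 0.0111% of the table. With the labels exchanged, 4 genes were at 0 in every library labelled cKO and above 3 TPM in every library labelled WT (0.00741% of the table).

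The cells came from retinas of C57BL/6 mice aged 8 to 10 weeks that carried a floxed *Arid1a* gene (*Arid1a* fl/fl), and all mice had optic nerve crush (ONC) 3 days earlier. The libraries labelled WT came from mice given AAV2 with GFP under the CMV promoter, so these controls also carried the floxed allele, the virus and the injury. The libraries labelled cKO (genotype *Arid1a* del/del) came from mice given AAV2 with Cre under the same promoter, which is not restricted to one retinal cell type. The virus was injected into the vitreous 2 weeks before ONC, and cells were sorted with an antibody to Thy1.2, a surface protein of retinal ganglion cells (RGCs) and of T cells. Retinas were pooled for each sample, and ATAC-seq, which maps open chromatin, was done on 2 WT and 2 cKO libraries.

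*Arid1a*, the targeted gene, had 18.8, 11.7 and 14.1 TPM under the WT label and 18.8, 27.9 and 25.0 TPM under the cKO label. Its RNA was thus not lower in the libraries labelled cKO (log2 fold change 0.66, SE 0.28, limma adjusted p = 0.274). A gene-level TPM also counts transcripts that lack only the floxed exons, so it does not measure the deletion itself, and WT and cKO stand for labels wherever a direction is given here. Markers of other cell types also differed in level between the labels. The summed TPM of 10 rod markers ran from 12471 to 17365 in WT and from 25575 to 48322 in cKO, that of 10 T cell markers from 659 to 1900 in WT and from 167 to 409 in cKO, and that of 10 myeloid markers from 2146 to 3614 in WT and from 900 to 1253 in cKO. For 10 Mueller glia and astrocyte markers the sum was 14287 to 26726 in WT and 10535 to 25199 in cKO. These ranges overlapped, though all 10 markers had a lower mean log2 level in cKO. For 10 bipolar and amacrine markers the sum was 1001 to 1232 in WT and 1481 to 2387 in cKO, with 9 higher and 1 lower. The summed TPM of 14 RGC markers ran from 189 to 274 in WT and from 258 to 292 in cKO, far below the glial sums. Of the 11 that could be tested, 7 were higher and 4 lower in cKO, none was called, and their median was 0.11 on the log2 scale. *Thy1*, whose product was used for the sort, was at 88.5, 51.9 and 62.7 TPM in WT and at 106, 94.4 and 129 TPM in cKO, whereas *Pou4f2*, a defining transcription factor of RGCs, was listed at 0 in 5 of the 6 libraries. Fewer cells of a type and less RNA per cell cannot be told apart in such bulk samples, and the part of these marker levels in the values of the 4 transcripts was not tested.

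Many mouse gene models with names such as Gm or Rik are long noncoding RNAs or pseudogenes that were annotated from sequence or from single cDNA clones, and little is known of what they do. Snhg genes are small nucleolar RNA (snoRNA) host genes. Their introns are processed into snoRNAs, which guide chemical changes of ribosomal and other RNA in the nucleolus, while the spliced host transcript is often short-lived. A transcript level from short reads depends on which annotated transcript each read is assigned to, and for genes that overlap on opposite strands or share sequence that assignment can move reads from one gene to the other.

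*Snhg9* and *1700087M22Rik* have a position in the RefSeq gene table used here (assembly GRCm38.p6), and *Gm47101* and *Gm49671* do not, so their genomic neighbours were not analysed here. *Snhg9* is a long noncoding RNA (NR_027900.2) on the minus strand at chr17:24719531-24719965, a span of 435 bp. It lies inside the widest extent of *Rps2*, a plus-strand gene for a protein of the small ribosomal subunit (chr17:24718121-24721927), and it spans *Snora78*, a snoRNA gene (chr17:24719676-24719832). The annotated starts of *Snhg9* and *Rps2* are 98 bp apart and point away from each other. *1700087M22Rik* is a long noncoding RNA (XR_874489.3) on the minus strand at chr14:30770679-30778024, a span of 7346 bp. It lies inside *Sfmbt1*, a plus-strand gene for a Polycomb-related protein (chr14:30714849-30822721). The gene table gives no exons, so whether either transcript covers an exon or an intron of the gene around it is not stated here.

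The sequence between the starts of *Snhg9* and *Rps2* and the 250 bases before the start of *1700087M22Rik* are shown as the sequences at the 2 located start sites, where ATAC-seq peaks were looked for. Both are from RefSeq promoter windows on GRCm38.p6, written 5′ to 3′ with CpG in capitals. The first is chr17:24719966-24720062 on the plus strand (97 bases) and the second is chr14:30778025-30778274 on the minus strand.
Between *Snhg9* and *Rps2*: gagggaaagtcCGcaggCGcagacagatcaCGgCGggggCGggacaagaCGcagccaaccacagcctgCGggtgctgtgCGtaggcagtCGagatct
Before *1700087M22Rik*: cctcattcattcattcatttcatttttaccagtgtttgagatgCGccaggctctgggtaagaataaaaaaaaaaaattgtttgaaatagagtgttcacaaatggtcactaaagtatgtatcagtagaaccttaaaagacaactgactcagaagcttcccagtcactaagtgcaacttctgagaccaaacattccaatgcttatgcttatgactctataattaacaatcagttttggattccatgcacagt

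The stretch between *Snhg9* and *Rps2* held 9 CpG and was 66.0% G and C, whereas the longer stretch before *1700087M22Rik* held 1 CpG and was 35.6% G and C. Over windows of 300 bases around a start, *Snhg9* had 28 CpG, more than 85.8% of the 32851 windows in the table, and *Rps2* had 34. The window of *1700087M22Rik* had 2 CpG, against a median of 7, and that of *Sfmbt1*, whose start is far from it, had 26. The letters TATAAA on either strand, the core of a TATA box, were present in the windows of *Snhg9* and *Rps2* but not in those of *1700087M22Rik* and *Sfmbt1*. They occur in 13.6% of all windows, and a match is a description of the sequence only. The stretch between the starts of *Snhg9* and *Rps2* printed above does not hold these letters on either strand. The windows of these genes overlap, so their CpG and TATAAA values are not independent.

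*Gm47101* was the most abundant of the 4 transcripts. It was at 41.0, 52.1 and 55.2 TPM in the libraries labelled cKO (49.4 ± 7.45, mean ± SD, n = 3) and listed at 0 in all 3 labelled WT. That level is well within the range of expressed genes, since 14.4% to 18.1% of the genes detected in a cKO library were higher. *Snhg9* was at 12.5, 7.36 and 7.26 TPM in the libraries labelled cKO (9.04 ± 2.99), with the first library higher than the other two. *Gm49671* was at 7.32, 6.95 and 9.87 TPM (8.05 ± 1.59), with the third library highest. *1700087M22Rik* was the lowest and the most even, at 3.93, 4.31 and 4.41 TPM (4.22 ± 0.252), a level that 53.3% to 54.1% of detected genes exceeded. All WT values of these 3 were also 0, so the groups did not overlap for any of the 4, as the rule required. Of the 17555 genes that passed a filter on low values, 3275 (18.7%) were higher in every library labelled cKO than in every library labelled WT. The 4 transcripts passed that filter only through the libraries labelled cKO. No fold change is given for them because a value listed at 0 has no ratio.

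**Figure D1:**
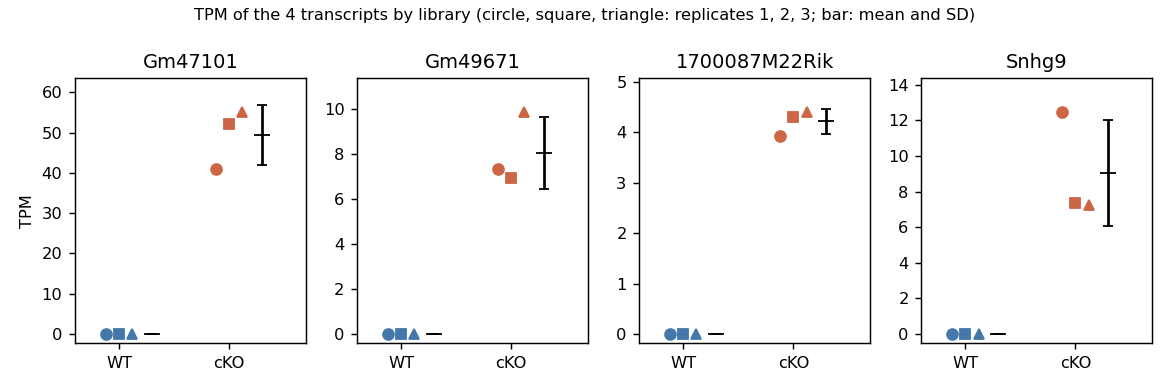
TPM (vertical axis, a separate scale for each panel) of the 4 transcripts in the 3 WT and 3 cKO libraries, with each point a library and the bar beside each group its mean and SD. Every WT point lies at 0, and the cKO points lie between 41.0 and 55.2 for *Gm47101* and between 3.93 and 12.5 for the other 3 transcripts.

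Just outside the limit of 3 TPM, *Gm22667* was at 2.72, 2.91 and 19.9 TPM in the libraries labelled cKO, *Gm21963* at 2.66, 5.69 and 3.86, and *Gm19716* at 2.19, 2.68 and 2.03, each with 0 in every library labelled WT. On the other side of the rule, *Gm30738* was above 3 TPM in every library labelled cKO but reached 0.584 TPM in a library labelled WT, *Gm19445* reached 1.05 TPM there, and *Htr2a*, a serotonin receptor, reached 1.42 TPM. Values at 0 were common in the table. In all, 125 genes were at 0 in every library labelled WT and above 0 in every library labelled cKO, and 71 showed the opposite pattern. Among the 29741 genes with Gm or Rik names these counts were 92 and 35, and among the 24233 other genes they were 33 and 36. Among the genes at 0 in every library labelled WT, only *Gm27544* and *Igkv12-98* had a higher mean TPM in cKO than *Gm47101*. In cKO the first was at 0, 83.4 and 185 TPM and the second at 0, 0 and 165 TPM, so neither was above 0 in every library.

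The depth of the libraries is not given with the TPM table, but part of it can be read from the values. In every library, 410 to 1053 genes had exactly the same TPM as at least 1 other gene. Values shared by at least 4 genes were set against a constant found for each library (93.5 to 105.6 TPM in WT and 106.2 to 125.1 TPM in cKO). The constant was the smallest multiple of the commonest value for which at least 80% of shared values gave a whole quotient. The tolerance was 0.001 and widened for large quotients. With that constant the quotient was a whole number for 84.9% to 93.9% of shared values, a share that the choice itself put above 80%. Such a pattern is what a whole number of reads on a transcript with a whole-number effective length (the number of positions at which a fragment can start) gives. The constant is then the TPM of 1 read on an effective length of 1.

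*1700087M22Rik* sat on such a step in all 3 libraries labelled cKO. Its TPM was the constant divided by 27, 29 and 28, and 8, 3 and 9 other genes had exactly the same value in the same library. The smallest number of reads that gives these values is 1 in each library. The TPM of *Snhg9* was the constant divided by 8.5, 17 and 17, which is 2, 1 and 1 reads on an effective length of 17 as the smallest whole numbers, with 2, 3 and 5 other genes at the same value. For *Gm49671* the quotients were 14.5, 18 and 12.5, or 2, 1 and 2 reads at the least, with 2, 5 and 4 genes tied. Its effective lengths on these numbers would be 29, 18 and 25, less even than those of the other 2 transcripts. Its smallest numbers of reads are therefore less certain. Over the 3 libraries the smallest numbers of reads add up to 3 for *1700087M22Rik*, 4 for *Snhg9* and 5 for *Gm49671*. A multiple of these reads on the same multiple of the length would give the same TPM, so the true numbers may be larger. Steps of this kind were infrequent at these levels. Between 3 and 15 TPM, 5.84% to 6.52% of genes in a library labelled cKO had a value that 1 to 3 reads on a whole-number length give, and 4.38% to 5.46% shared their exact value with another gene.

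**Figure D2:**
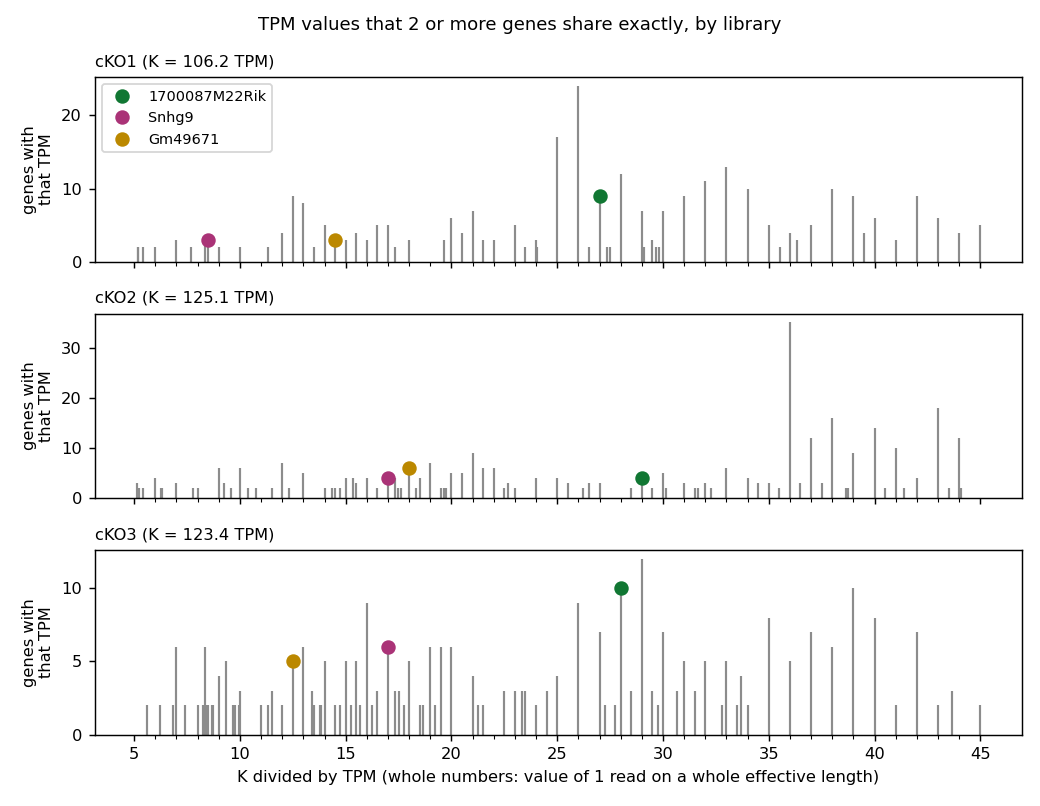
For the libraries cKO1, cKO2 and cKO3, each grey line is a TPM value that 2 or more genes share, placed by the library's constant K divided by that TPM (horizontal axis, no unit), with the number of genes that share it as its height. The dots mark *1700087M22Rik* at 27, 29 and 28, *Snhg9* at 8.5, 17 and 17, and *Gm49671* at 14.5, 18 and 12.5.

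For 3 of the 4 transcripts, these numbers set what a value of 0 in WT can show. A library in which no read was found is compatible with up to 3 reads, counting error alone considered. On the effective lengths found in the libraries labelled cKO, 3 reads in a library labelled WT would be 9.68 to 11.7 TPM for *1700087M22Rik*, above its 3.93 to 4.41 TPM in the libraries labelled cKO. The same limit was 16.5 to 18.6 TPM for *Snhg9*, above its 7.26 to 12.5 TPM. For *Gm49671*, on uneven lengths from 18 to 29, it was 9.68 to 17.6 TPM, against 6.95 to 9.87 TPM. Within a single library labelled WT, a level equal to that in cKO would therefore not have been detectable at this depth for *1700087M22Rik* and *Snhg9*, and for *Gm49671* the ranges meet. A single read in each library labelled WT would have been worth 3.23 to 3.91 TPM for *1700087M22Rik* and 5.50 to 6.21 TPM for *Snhg9*. For *Gm49671* it would have been worth 3.23 to 5.87 TPM. These joint limits lie under the values in cKO, but the transcripts were chosen for their 0 in WT, so no test is drawn from them. If the true numbers of reads were larger, the limits would be lower in proportion.

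*Gm47101* behaved differently. Its value shared no step with any other gene in any of the 3 libraries labelled cKO, and no whole number of up to 12 reads on a whole-number length gave it. No limit from a count of 0 can be stated for it. Of the 17555 genes tested by limma, 1 was called higher in cKO (0.0057%) and no gene was called lower. That 1 gene was *Gm47101*, which the rule chose on this contrast, so the share is no independent background. Before adjustment, 2095 genes (11.9%) had a p under 0.05 in the higher direction and 1133 (6.45%) in the lower. Without cKO replicate 1, 2 or 3, *Gm47101* no longer passed the filter on low values and was not tested. In those fits 0 genes were called higher, which does not show how stable its call is. Because the rule used this contrast, nothing is read from the call.

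Of both other genes that met the rule, *Gm48191*, a pseudogene, was at 4.08, 10.4 and 4.41 TPM in cKO. These values are 1 read each as the smallest number, and its value in cKO3 was exactly that of *1700087M22Rik*. *Gm13828* was at 9.31, 4.39 and 10.3 TPM, or 5, 2 and 1 reads at the least.

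Whether reads of the 2 located transcripts went to another gene in the libraries labelled WT was examined in the 15 genes that overlap them or lie nearest to them, 3 on each side. Of the 11 neighbours that could be tested, none was called higher or lower in cKO. Over all genes 0.0057% and 0% were called, and that share is *Gm47101* alone, which was chosen on this contrast. At an unadjusted limma p under 0.05, 1 neighbour was higher and 1 was lower, and the lowest adjusted p was 0.207. The log2 fold changes of the neighbours lay between -0.87 and 0.73. In simulated data the fit called 1 of 67 genes changed by 1 on the log2 scale, so the absence of calls shows little.

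*Sfmbt1*, which surrounds *1700087M22Rik* on the other strand, was at 11.3, 13.8 and 13.5 TPM in WT and at 19.6, 19.7 and 12.8 TPM in cKO. The groups overlapped through cKO3, and the difference did not pass the test (log2 fold change 0.39, SE 0.27, limma adjusted p = 0.479). Its mean was 12.8 ± 1.38 TPM in WT and 17.4 ± 3.96 TPM in cKO (SD, n = 3). *1700087M22Rik* amounted to 20.0%, 21.9% and 34.4% of the TPM of *Sfmbt1* in the 3 libraries labelled cKO. TPM is per length, so a read is worth less TPM on a longer transcript. Because *1700087M22Rik* was chosen for its 0 in WT, a sum of both genes would differ by that choice alone, and whether its reads went to *Sfmbt1* in WT cannot be told from these values.

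On the left of *1700087M22Rik*, *Tkt*, an enzyme of the pentose phosphate pathway, was at 322, 375 and 293 TPM in WT and at 731, 518 and 430 TPM in cKO (log2 fold change 0.73, SE 0.26, limma adjusted p = 0.207). *Prkcd*, a protein kinase C, was at 62.8, 54.7 and 80.1 TPM in WT and at 41.1, 25.3 and 48.5 TPM in cKO (log2 fold change -0.80, SE 0.30, limma adjusted p = 0.227). These were the only 2 neighbours whose groups did not overlap, 1 in each direction, where 18.7% of all tested genes were higher and 7.18% lower without overlap. *Tkt* lies 195954 bp and *Prkcd* 144264 bp away from the transcript. On the right, *Gm15667*, a pseudogene inside the span of *Sfmbt1*, lay between 1.69 and 3.88 TPM (log2 fold change -0.22). *Stimate*, a regulator of calcium entry at the endoplasmic reticulum, lay between 8.81 and 31.6 TPM (log2 fold change -0.45), and *Mustn1*, a small nuclear protein of muscle and skeleton, between 0.413 and 1.98 TPM (log2 fold change 0.02).

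*Rps2*, in whose extent *Snhg9* lies, was at 419, 203 and 141 TPM in WT and at 224, 180 and 47.4 TPM in cKO. Its groups overlapped, and the difference was within the spread between libraries (log2 fold change -0.87, SE 0.65, limma adjusted p = 0.509). *Snhg9* amounted to 5.58%, 4.09% and 15.3% of the TPM of *Rps2* in the 3 libraries labelled cKO. The values of *Rps2* in the 3 libraries labelled WT spanned 278 TPM, which is 22.3 times the highest value of *Snhg9*. A shift of the size of *Snhg9* from one gene to the other would therefore not be detectable in *Rps2*. Ribosomal protein genes have processed pseudogenes of near-identical sequence, and how far such copies affect the level of *Rps2* here was not tested.

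**Figure D3:**
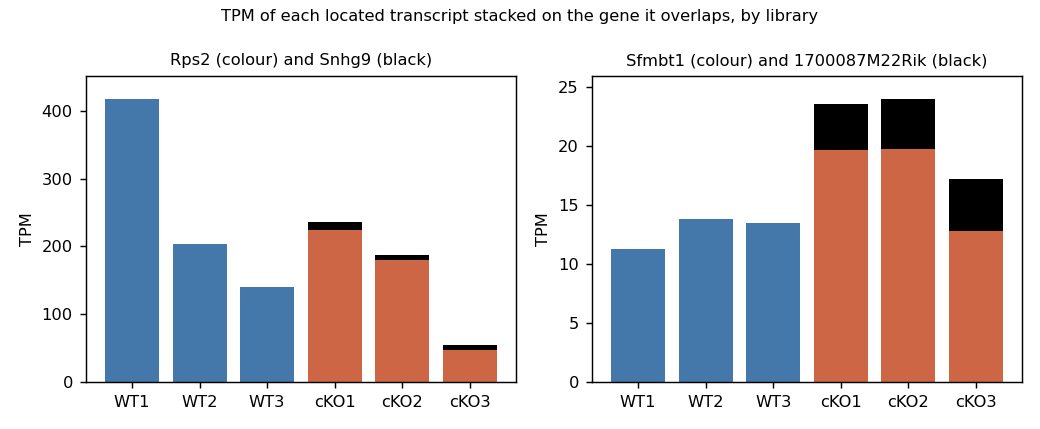
TPM (vertical axis, from 0) in each of the 6 RNA-seq libraries of *Rps2* with *Snhg9* stacked on it in black (left) and of *Sfmbt1* with *1700087M22Rik* stacked on it in black (right). The coloured bars of WT and cKO overlap in height in both panels, and the black parts are absent from the WT bars because the transcripts were chosen for a value of 0 there.

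The snoRNA genes at this locus gave no alternative record of the reads. *Snora78*, within *Snhg9*, and *Snora64*, within *Rps2*, were listed at 0 in all 6 libraries. *Ndufb10*, a subunit of respiratory complex I, lies on the same strand with its nearer end 2094 bp from *Snhg9*. It was at 77.4, 78.5 and 59.7 TPM in WT and at 109, 117 and 68.6 TPM in cKO (log2 fold change 0.42, SE 0.27, limma adjusted p = 0.444). *Tbl3*, a factor of ribosome assembly, lay between 8.17 and 11.1 TPM (log2 fold change 0.08), and *Noxo1*, an organizer of NADPH oxidase, between 1.67 and 6.31 TPM (log2 fold change 0.05). *Rnf151*, a ring finger protein, and *Rpl3l*, a ribosomal protein of muscle, were at 0.712 TPM or less in every library and were not tested.

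*Snhg9* was set beside 32 other snoRNA host genes. Of these, 18 had a higher and 14 a lower mean log2 level in cKO than in WT. None was called (0.0057%, which is *Gm47101* alone, and 0% over all genes), and the fit seldom calls a log2 change near 1, as given above. At an unadjusted limma p under 0.05, 3 of these hosts were higher, where 11.9% of all tested genes were. Over all genes tested, 10733 of 17555 had a higher mean log2 level in cKO. Their median log2 fold change was 0.15, next to 0.16 over all 17555 genes tested. Among the 15 hosts with an Snhg name the median was 0.66, with 10 higher and 5 lower. Among the 17 other hosts, most of which code for proteins such as ribosomal proteins and translation factors, it was -0.01. The highest value was that of *Snhg3*, at 21.1, 1.40 and 13.7 TPM in WT and at 42.5, 73.6 and 19.3 TPM in cKO (log2 fold change 2.13, SE 0.87, limma adjusted p = 0.258). Its groups overlapped between WT1 and cKO3. *Snhg11*, a host with neuronal expression, was at 269, 168 and 162 TPM in WT and at 900, 559 and 406 TPM in cKO (log2 fold change 1.60, SE 0.35, limma adjusted p = 0.124). *Snhg1* lay between 4.53 and 42.9 TPM (log2 fold change 1.02, SE 0.65) and *Gas5*, the host of a large set of snoRNAs, between 119 and 179 TPM (log2 fold change 0.13, SE 0.25). The lowest value was that of *Rps2*. All 32 other hosts were above 0 in at least 1 library labelled WT. Of 11 other noncoding RNAs, not all of them long, tested as a reference, 9 were higher and 2 lower, with a median log2 fold change of 0.31.

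**Figure D4:**
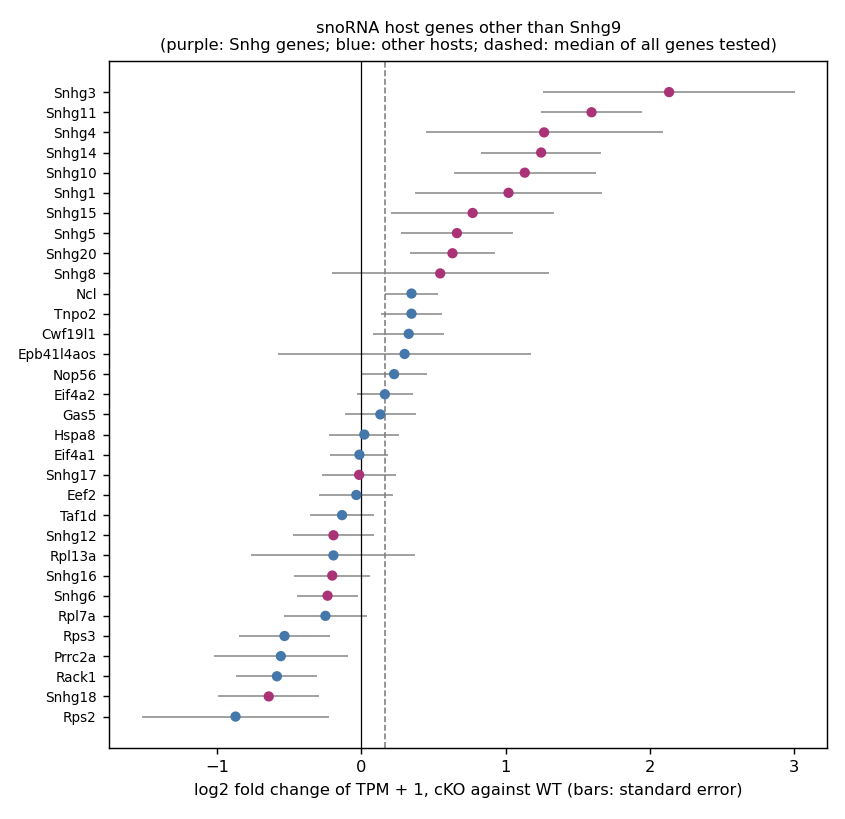
Log2 fold change of TPM + 1 in cKO against WT (horizontal axis) for the 32 snoRNA host genes other than *Snhg9*, with each point a gene and the bars its standard error. Values run from -0.87 for *Rps2* to 2.13 for *Snhg3*, and the dashed line is the median of all tested genes at 0.16.

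The 4 transcripts followed each other closely over the 6 libraries. Pearson's r between pairs of them lay between 0.981 and 1.00, which mostly restates the gap between both groups that chose them, since 3 of the 6 points of each are 0. Outside the 4, the genes with the highest r to *Gm47101* were *Gm42064*, *Pygm* and *Ufsp1* (0.996 to 0.997). The same 3 genes led for *1700087M22Rik* (0.995 to 0.997), and *Ufsp1*, *A930040O22Rik* and *Gm42064* for *Gm49671* (0.996 to 0.999). For *Snhg9* they were *Gm3076*, *Klhl12* and *Sap30bp* (0.995 to 0.998). *Pygm*, the muscle glycogen phosphorylase, was at 58.5, 60.5 and 64.1 TPM in WT and at 113, 117 and 118 TPM in cKO. *Ufsp1*, a peptidase of the ubiquitin-like UFM1 system, was at 21.1, 22.2 and 22.4 TPM in WT and at 51.0, 51.7 and 59.5 TPM in cKO. *Gm42064* and *Gm3076* were themselves listed at 0 in every library labelled WT, at up to 1.65 and 1.61 TPM in cKO. These genes were picked from all genes for their likeness over 6 points, so they carry no test.

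In ATAC-seq, the start of *Snhg9* lay in a peak in both libraries labelled WT and in neither labelled cKO, opposite in direction to its listed RNA. The peak was chr17:24719855-24720139 in WT1 and chr17:24719929-24720291 in WT2, and each of them covers the stretch between the starts of *Snhg9* and *Rps2* printed above, so it cannot be assigned to one of the 2 genes. In the region over both peaks, the authors' log2 mean of normalized reads was 4.55 in WT and 1.39 in cKO, equal to 23.4 and 2.62 normalized reads. These are group means with no spread. The pattern is common in these files. Of 20682 genes with a start, 28.7% had a peak within 1000 bp in both libraries labelled WT and in neither labelled cKO, and 47.5% of those tested by RNA-seq did. A peak lay within 1000 bp of a start for 44.8% and 39.5% of genes in the libraries labelled WT and for 7.55% and 7.43% in those labelled cKO, although the latter had 55902 and 68317 peaks against 76522 and 42265. Over all 16600 regions the median authors' log2 mean was 4 in WT and 2.67 in cKO, and 77.3% of regions were lower in cKO.

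**Figure D5:**
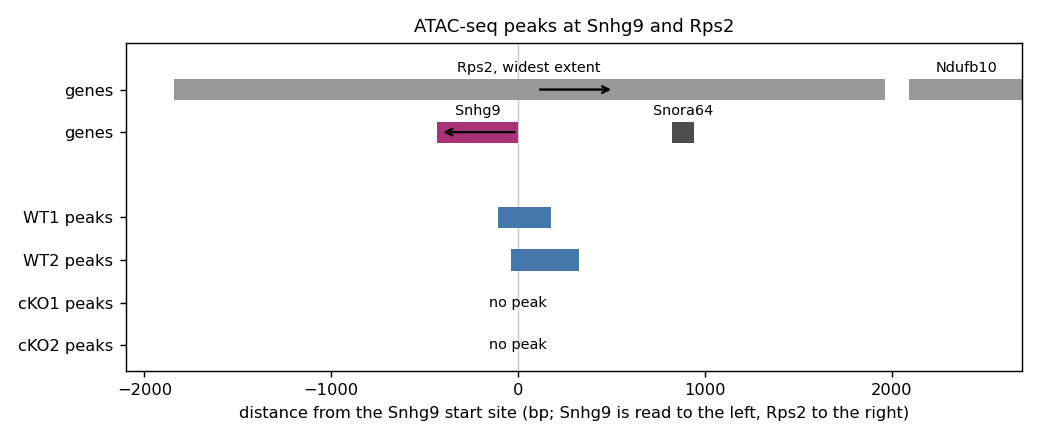
Map of the *Snhg9* locus by distance from its start in bp (horizontal axis), with the genes above, arrows for the direction of transcription, and the ATAC-seq peaks of each library below. One peak in each of WT1 and WT2 covers the start of *Snhg9*, and no peak was listed in the window for cKO1 or cKO2.

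No peak lay within 1000 bp of the start of *1700087M22Rik* in any of the 4 libraries. The nearest were a WT1 peak at chr14:30770038-30770324, 355 bp beyond the far end of the gene, and a cKO2 peak at chr14:30775570-30775843, inside the gene and 2181 bp from its start. Neither was listed in the other library of its group, and no region of the authors' table covered them. The ATAC-seq and RNA-seq libraries are different samples, so their values are set side by side by label only.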

How the data were processed

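RNA-seq (3 WT and 3 cKO libraries) was deposited as TPM per gene, which the authors made from trimmed paired-end reads with Salmon 1.0.0 on GENCODE transcripts and summed per gene. TPM carries no read counts. ATAC-seq peak lists (2 WT and 2 cKO libraries) give positions alone, and per the labels they were made with Bowtie2 2.3.5.1 and MACS2 2.2.5 on GRCm38. A table of regions holds the authors' log2 mean of normalized reads per group. Columns of the authors' own fold changes and p-values (for RNA-seq from DESeq2 1.26.0) were not used.

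Groups came from the sample titles. The 4 transcripts, the gene lists and the neighbours were chosen with earlier results of these data known. Genes that reached 1 TPM in 3 or more of the 6 libraries were compared as log2(TPM + 1) with limma 3.58.1 in R 4.3.3 (empirical Bayes with a trend, Benjamini-Hochberg adjustment, threshold 0.05). A fold change on that scale understates the change of low genes. P-values measure the spread between these libraries of pooled retinas. The script was tested on simulated data with the spread of these libraries. It called 1 of 67 genes with a log2 change of 1, 31 of 67 with a change of 2 and 50 of 66 with a change of 3. Replicate numbers in the titles were not used to pair the samples in the main fit, so its p-values are unpaired. The deviations of same-numbered libraries from their group means correlated at 0.334, 0.101 and 0.425. Differently numbered libraries were not compared in this way, so these values do not establish a pairing. A fit with the number as a block is an alternative.

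Positions, start sites and sequences came from RefSeq tables on GRCm38.p6, matched by symbol, in which 2 of the 4 transcripts were found; peak positions are counted from 1. Shared TPM values were searched for up to 12 reads. Limits from a count of 0 use 3 reads per library and cover counting error only. Genes named are the 4 transcripts, genes that overlap them and the 3 nearest on each side (1 of them is counted but not reported here), the 3 most alike, the 3 just outside each limit, *Snhg9*, *Rps2*, *Gas5* and *Snhg1* with the highest and lowest snoRNA host, and *Arid1a*; *Snhg11*, *Gm13828*, *Gm48191* the marker genes *Pou4f2* and *Thy1*, *Gm27544*, the *Igkv* genes and the 4 genes of the exchanged labels were added after their values were seen.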

Additional observations from a re-analysis of the deposited data

How the results depend on the processing

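No neighbour and none of the 32 other snoRNA host genes was called in either direction under any alternative. The alternatives were median-of-ratios scaling, limma without a trend, the replicate block, a pseudocount of 0.1 and a filter at a mean of 5 TPM. No filter at all and any single library left out were also tried. Few genes were called in any of these fits, so the absence of calls for neighbours and hosts shows little. The median log2 fold change of these hosts was 0.04 to 0.23 with a library left out and -0.024 under median-of-ratios scaling, next to 0.01 over all genes there. Over all genes, limma without a trend called 4 genes higher, which are the 4 transcripts themselves. They were chosen on this contrast, so nothing is read from these calls. With the trend kept and a library left out, 0 to 1 genes were called higher and 0 to 1 lower. No gene was called higher without cKO replicate 1, 2 or 3, when *Gm47101* no longer passed the filter and was not tested. The replicate block called 1 gene lower, *Igkv8-21*, and kept the call of *Gm47101*; it changed no other call. Scaling by the median of ratios moved the median over all genes, on the log2 scale, from 0.16 to 0.01, and it turned the sign of *Mustn1* to -0.054, of *Noxo1* to -0.066 and of *Tbl3* to -0.072, all small values that did not pass the test under any setting. With a library left out, the log2 fold change ranged from -0.86 to 0.010 for *Stimate*, from -0.28 to 0.26 for *Mustn1* and from -0.26 to 0.47 for *Noxo1*. That of *Rps2* ranged from -1.30 to -0.19. The lowest adjusted p of a neighbour under any alternative was 0.129.

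The number of genes that met the rule was 6, and it was 18 with a minimum of 1 TPM, 3 with a minimum of 5 TPM, and 7 to 19 with a library left out. Within 3000 bp of a start, cKO2 had a peak for 1 of the 2 located transcripts, *1700087M22Rik*, in place of 0. The constants behind shared TPM values were also found from values shared by at least 3 or at least 6 genes, a choice made after seeing the data. In cKO3 the first doubled the constant to 247 TPM and took the smallest number of reads of *Gm49671* from 2 to 1; the other gave the same numbers as the values shared by at least 4 genes. The smallest numbers of reads assume whole-number effective lengths, which the files do not state. Positions of *Gm47101* and *Gm49671* were not used here.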

Other observations

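The 4 genes listed at 0 in every library labelled cKO and above 3 TPM in every library labelled WT were *Gm13192* and *Gm7536*, both pseudogenes, *Gm13777* and *Gm28942*. *Gm7536* was at 18.3, 26.9 and 8.82 TPM in the libraries labelled WT, *Gm13777* at 5.30, 20.7 and 4.66 TPM, *Gm13192* at 3.35, 5.35 and 11.7 TPM, and *Gm28942* at 5.76, 3.70 and 9.23 TPM. The value of *Gm13777* in WT3 was 1 read as the smallest number, with 5 other genes at the same TPM. None of the values of *Gm13192* lay on a step of up to 12 reads, as for *Gm47101*.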
